A study of Mus musculus with 6 samples.

Results

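The T cell effector regulators described here are 6 genes: the T-box factors Eomes and Tbx21 (the T-bet gene), the Runt-domain factors Runx1, Runx2 and Runx3, and Cbfb, their shared partner. They were chosen by name. All 12 probes whose RefSeq accession maps to these 6 genes were taken, out of 55371 usable probes and 22561 gene symbols on the array. RNA levels were read on 6 Agilent arrays of mouse genes (1 colour), with 2 arrays from independent experiments in each of 3 groups. TEa cells are CD4+ T cells with a transgenic receptor (Vα2+Vβ6+) that sees a peptide of donor MHC class II. CD45.2+ TEa cells on a C57BL/6 background were given on day -1 to CD45.1+ B6.SJL mice, which were grafted with hearts of Balb/c donors on day 0. On day 6 they were recovered from the spleens by sorting.

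The WT IgG group held Wildtype TEa cells from recipients labelled as treated with rat IgG, for which no dose or day is given. The Irf4 KO IgG group held Irf4-/- TEa cells from recipients injected with 400 µg of rat IgG on days 0, 3 and 5. The Irf4 KO blockade group held Irf4-/- TEa cells from recipients that were given 200 µg of an antibody to PD-L1 and 200 µg of an antibody to CTLA-4 on the same days. The labels state neither the age of the mice nor whether animals were pooled. No WT group with blockade was analysed here, so blockade can be compared with IgG in Irf4 KO cells alone.

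T-box factors bind DNA through a shared T-box domain. T-bet directs CD4+ T cells towards the Th1 state with interferon-gamma production, and Eomes is best known from cytotoxic CD8+ T cells, NK cells and memory cells. Runx factors bind DNA through the Runt domain as heterodimers with the protein encoded by Cbfb, which does not bind DNA itself but strengthens Runx binding. Runx1 acts in T cell development and in resting T cells, Runx3 works with T-bet in Th1 cells and silences Cd4 in the CD8 lineage, and Runx2 is best known from bone. Irf4, the gene deleted in 2 of the 3 groups by their labels, encodes a factor induced by T cell receptor signalling that binds response elements built from repeats of GAAA or composite elements shared with AP-1 proteins. The comparisons address what loss of Irf4 changes in T cells that meet a graft, and what checkpoint blockade changes in such cells.

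Promoter sequences of the 6 genes were read from RefSeq's table (build GRCm38.p6, windows of 250 bases before to 50 after a transcript start). Each gene had at least 1 window there. They are shown for Eomes, the member with the largest rise among the bright probes, and for the stretch that the 3 Runx genes share. Eomes was the only one of the 6 genes whose window held, on either strand, the core of an interferon-stimulated response element, searched as GAAA, any 2 bases and GAAA. Such a match was present in 1131 of 32851 promoter windows, or 3.44%. The 250 bases before the Eomes start (chr9:118477939-118478188, plus strand) follow, with the match in capitals.
Eomes: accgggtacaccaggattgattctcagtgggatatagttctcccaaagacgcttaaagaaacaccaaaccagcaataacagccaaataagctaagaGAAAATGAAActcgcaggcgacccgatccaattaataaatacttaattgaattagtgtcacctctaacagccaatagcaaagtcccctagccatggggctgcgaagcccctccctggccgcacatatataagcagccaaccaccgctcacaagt
An Ets and Irf composite, searched as GGAA, any 2 bases and GAAA (2.72% of all windows), can overlap that core. It had no match in the windows of the 6 genes, nor had an AP-1 and Irf composite, searched as TTTC, any 4 bases, TGA, any base and TCA (0.12%) or as GAAA directly before TGA, any base and TCA (0.12%). The T-box letters AGGTGTGA (1.28%) had none either.

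The Runx letters TGTGGT, which read ACCACA on the other strand, were found in windows of Runx1, Runx2 and Runx3 and in 16.8% of all windows. These 3 genes shared a stretch of 18 bases that holds 2 such matches, and the stretch was found in 4 of the 32851 windows. The 30 bases around it are given for Runx1 (chr16:92826025-92826054, minus strand), Runx2 (chr17:44814583-44814612, minus strand) and Runx3 (chr4:135120503-135120532, plus strand), with the Runx letters in capitals.
Runx1: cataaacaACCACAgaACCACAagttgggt
Runx2: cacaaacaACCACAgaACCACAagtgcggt
Runx3: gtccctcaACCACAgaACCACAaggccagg
The stretch lay after the transcript start in Runx1 and Runx2 and before it in Runx3. A match is a run of letters and does not show that a factor binds there.

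The values were processed signals, an intensity that the scanner software subtracts for background and does not scale between arrays. Across the whole array weak probes had more signal on the Irf4 KO IgG arrays: 67.6% and 76.5% of spots were well above background there, against 37.2% to 42.9% on the other 4 arrays. Both WT arrays left 31515 probes dim, and of these 38.3% were lit (well above background) on both arrays of the Irf4 KO IgG group, against 0.517% on both of the blockade group. Probes whose log2 intensity averaged 8 or more were therefore taken as bright and were quantile-normalised among themselves, so a change is relative to the other bright probes. This left 10225 probes, whose median log2 fold change was -0.02 between Irf4 KO IgG and WT. Irf4 itself, at its brighter probe, had intensities of 673 and 1068 in WT, 2128 and 3073 in Irf4 KO IgG and 2071 and 1703 in blockade cells, and its dimmer probe had 73.6 and 80.3, then 226 and 221, then 218 and 163. Both go against the genotype label. Where they lie relative to the deleted part is not known here, so groups go by their labels here.

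All 12 markers of T cells were well above background on all 6 arrays. In blockade cells 1 of the 12 had a positive change from WT (median -0.26) and 0 from Irf4 KO IgG (median -0.25), and 0 passed by limma. Of all bright probes, 0.440% passed as higher and 0.284% as lower between blockade and WT, and 0.900% passed between blockade and Irf4 KO IgG. The part of these lower T cell markers in the lower Runx3 of blockade cells was not tested. Of 10 markers of CD8 T and NK cells, well above background were 5 and 6 in WT, 8 and 10 in Irf4 KO IgG and 5 on each blockade array. Their summed intensity was 1446 and 1412 in WT, 1525 and 4890 in Irf4 KO IgG and 1500 and 1940 in blockade cells. The summed intensity of 10 B cell markers was 226 and 232 in WT, 1085 and 5321 in Irf4 KO IgG and 386 and 398 in blockade cells, and that of 9 markers of erythroid cells and platelets was 235 and 800 in WT, 1913 and 55510 in Irf4 KO IgG and 11520 and 7069 in blockade cells. Markers of monocytes, macrophages and neutrophils summed to between 10747 and 17691 in WT and blockade cells and to 23326 and 77060 in Irf4 KO IgG cells. In sorted bulk cells, a smaller number of cells that express a gene and less of its RNA per cell cannot be told apart.

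Of the 12 probes, 6 were bright: 1 each of Eomes, Tbx21, Runx3 and Cbfb, and 2 of Runx1. The lowest of them was Eomes at a mean log2 intensity of 8.21, and the highest probe that was left out was the second of Runx3, at 5.87. Eomes was at 6.25 on the WT arrays before scaling and passed the minimum through its level in the Irf4 KO groups, so its place among the bright probes is not independent of its rise. Runx2 had no bright probe.

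**Figure D1:**
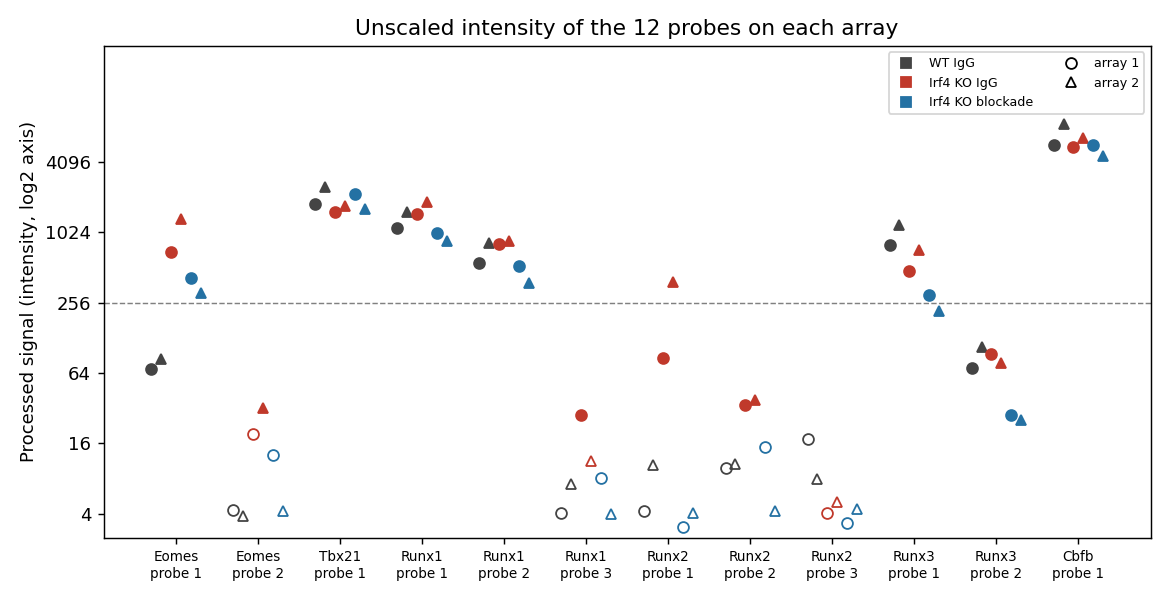
Processed signal of each of the 12 probes on the 6 arrays (log2 axis, before scaling), with filled symbols where the probe was well above background and a dashed line at a log2 intensity of 8. Eomes probe 1 separates both Irf4 KO groups from WT, Runx3 probe 1 falls from WT to blockade, and Runx2 is above background on the Irf4 KO IgG arrays alone.

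Cells labelled Irf4 KO had more Eomes RNA and less Runx3 RNA than WT cells, whether or not the recipients received blockade, as measured at the bright probe of each. Before any scaling, the dim Runx3 probe did not separate Irf4 KO IgG from WT. Of the 6 bright probes, 1 rose (Eomes) and 1 fell (Runx3) in each of these comparisons, and Tbx21, Runx1 and Cbfb did not pass the test. The test was limma over all 10225 bright probes, with a Benjamini-Hochberg adjusted p under 0.05. Of all bright probes, 1.41% rose and 0.998% fell from WT to Irf4 KO IgG, and 0.440% rose and 0.284% fell from WT to blockade. Eomes is among the 6 only through its level in the Irf4 KO groups, so these shares give no independent support for its rise. At an unadjusted p under 0.05 the counts of the 6 were 3 and 2, where 23.3% and 19.0% of all bright probes were. On this scale the groups did not overlap for 3 of the 6 in the first comparison and for all 6 in the second, against 52.5% and 55.0% of all bright probes. Both comparisons share the WT arrays.

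Eomes had intensities of 69.4 and 83.6 in WT, 690.0 and 1319 in Irf4 KO IgG and 419 and 311 in blockade cells, arrays 1 and 2 in each group. All 4 Irf4 KO arrays lay above both WT arrays, and both IgG arrays lay above both blockade arrays. On the bright-probe log2 scale WT cells were at 6.65 ± 0.18, Irf4 KO IgG cells at 9.59 ± 0.24 and blockade cells at 8.83 ± 0.01 (SD, n = 2). This was 7.69-fold more in Irf4 KO IgG than in WT (log2 fold change 2.94, SE 0.16, limma adjusted p = 0.0103) and 4.52-fold more in blockade than in WT (2.18, SE 0.16, limma adjusted p = 0.0140). The probe was among those tested only through its level in the Irf4 KO groups. Its p-values, here and in the other settings, therefore give no independent support for the rise.

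The rise of Eomes over WT kept its direction in all 18 other settings run, in both comparisons. It passed in 16 of them for Irf4 KO IgG, where the adjusted p was 0.0541 without blockade array 1 and 0.0551 with the 4 arrays compared alone, and in 11 for blockade. The second call ended without WT array 1 (adjusted p = 0.0725), WT array 2 (0.0884), blockade array 1 (0.132) or blockade array 2 (0.147), and on the 3 scales set over all detected probes (0.138 to 0.171). The arrays lay in 2 rows of 1 slide, and within each row Eomes was higher by 3.24 and 2.64 (log2) in Irf4 KO IgG than in WT and by 2.31 and 2.04 in blockade. Eomes stood out from probes of like brightness before any scaling: 2991 probes had a WT mean log2 intensity from 6 to 7, their median moved by 0.73 on the Irf4 KO IgG arrays (quartiles 0.37 and 1.15) and by -0.37 on the blockade arrays, and Eomes moved by 3.65 and 2.24.

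The second Eomes probe, A_66_P137763, maps to another transcript and was well above background on 1 array, Irf4 KO IgG array 2, with an intensity of 32.4. It gives no measure of a change. Of markers of the cytotoxic cells in which Eomes is best known, Cd8a read at most 23.7 on every array at one probe and 64.7 at the other, and was well above background on Irf4 KO IgG array 2 alone. Ncr1, an NK cell receptor, read 18.6 and 8.6 in WT and 5.37 and 4.33 in blockade cells, not well above background. It read 155 and 264 in Irf4 KO IgG cells, where it was lit each time. The same was true of 38.3% of the 31515 probes left dim in WT. The part of that array-wide shift in the Ncr1 signal was not tested. Cd8b1, Klrb1c, Klrd1, Gzma and Prf1 were detected on all 6 arrays. The granzyme gene Gzma read 361 and 160 in WT, 222 and 2619 in Irf4 KO IgG and 501 and 598 in blockade cells, and the perforin gene Prf1 read 201 and 187, then 280 and 544, then 254 and 254. Of the 10 markers 3 were bright, and all 3 had a positive change from WT to blockade (median 0.64), with 0 past the threshold by limma. Of all bright probes, 0.440% passed as higher and 0.284% as lower in that comparison. Before scaling, Klrd1 and Klrb1c, which were not bright, did not share the direction of the 3 bright ones. Probes at their WT levels (log2 6 to 7 and 7 to 8) moved by medians of -0.37 and -0.35 on the blockade arrays. The values below are not corrected for this. Klrd1 read 84.5 and 93.7 in WT and 46.3 and 23.5 in blockade cells. Klrb1c, at its brightest probe, read 150 and 232 in WT and 106 and 162 in blockade cells, so these groups overlapped. The part of other cells in the level of Eomes was not tested in either Irf4 KO group.

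Tbx21 had intensities of 1773 and 2483 in WT, 1533 and 1705 in Irf4 KO IgG and 2155 and 1623 in blockade cells. The blockade arrays spanned much of the range of the other groups. Its bright-probe log2 level was 10.98 ± 0.07 in WT and 11.11 ± 0.05 in blockade cells, and 10.44 ± 0.37 in Irf4 KO IgG cells (SD, n = 2). From WT to Irf4 KO IgG it changed by -0.53 (SE 0.19, 95% interval -1.01 to -0.06, limma adjusted p = 0.178), and from WT to blockade by 0.13 (95% interval -0.34 to 0.60, limma adjusted p = 0.761). On the 3 scales set over all detected probes the first value passed as lower (-1.58, -3.24 and -0.85), where bright probes as a whole moved by -1.04, -2.71 and -0.31. On the first of them 26.9% of detected probes passed as lower. Tbx21 kept its sign in all 19 other settings.

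Eomes and Tbx21 were then compared within each array, where the ratio of their unscaled intensities is not moved by any scaling that multiplies a whole array. A shift that depends on intensity does move it. On the Irf4 KO IgG arrays probes at the WT level of Eomes (log2 6 to 7) moved by a median of 0.73. Those at the level of Tbx21 (11 to 12) moved by 0.06. On the blockade arrays these medians were -0.37 and -0.33. The ratios below are not corrected for this. Relative to the WT mean, the log2 ratio of unscaled intensities was 0.11 and -0.11 in WT, 3.63 and 4.41 in Irf4 KO IgG and 2.42 and 2.40 in blockade cells. No groups overlapped. The ratio was 16.3-fold higher in Irf4 KO IgG and 5.32-fold higher in blockade than in WT, and 3.06-fold lower in blockade than in Irf4 KO IgG. The exact permutation test gave a two-sided p of 0.333 for each of these, the smallest that 2 arrays against 2 can give. On the quantile-normalised bright-probe scale the log2 ratio was 3.48 and 2.05 above WT.

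**Figure D2:**
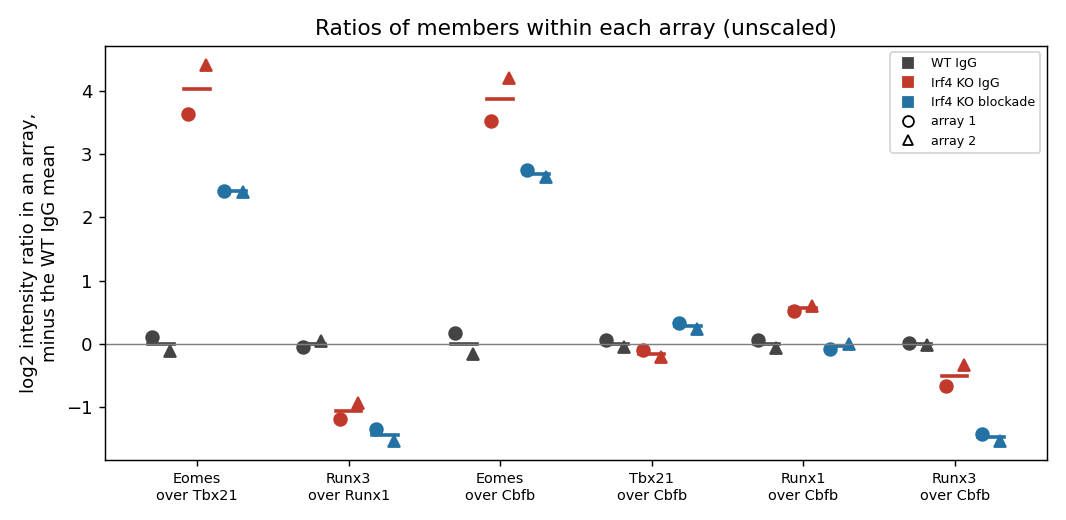
Log2 ratio of the unscaled intensities of 2 genes within each array, minus its mean over the WT IgG arrays; points are arrays and bars are group means. Eomes over Tbx21 lies near 4 on the Irf4 KO IgG arrays and near 2.4 on the blockade arrays, and Runx3 over Runx1 lies between -0.93 and -1.53 on all 4 Irf4 KO arrays.

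Runx3, at its bright probe, read 795 and 1172 in WT, 475 and 723 in Irf4 KO IgG and 296 and 219 in blockade cells. The groups did not overlap, with WT highest and blockade lowest. The mean on the bright-probe log2 scale was 9.90 ± 0.08 for WT, 8.854 ± 0.00089 for Irf4 KO IgG and 8.35 ± 0.01 for blockade (SD, n = 2). This was 2.06-fold less in Irf4 KO IgG than in WT (log2 fold change -1.04, SE 0.11, limma adjusted p = 0.0237) and 2.92-fold less in blockade than in WT (-1.55, SE 0.11, limma adjusted p = 0.0121).

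The fall of Runx3 kept its direction in all 19 other settings in both comparisons. It passed in 11 of them for Irf4 KO IgG and in 12 for blockade. With Irf4 KO IgG it did not pass without WT array 1 (adjusted p = 0.121) or 2 (0.0936), Irf4 KO IgG array 1 (0.0590), blockade array 1 (0.0993) or blockade array 2 (0.0968), nor with the 4 arrays compared alone (0.0976), a minimum mean log2 of 9 (0.0512) or a replicate block (0.0560). With blockade it did not pass without WT array 1 (adjusted p = 0.0725) or 2 (0.0825), blockade array 1 (0.132) or blockade array 2 (0.147), nor on the 3 scales set over all detected probes (0.216 to 0.229). Within the slide rows the differences were -1.10 and -0.98 from WT to Irf4 KO IgG and -1.61 and -1.48 from WT to blockade.

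Before scaling, the 2 probes of Runx3 did not show the same pattern. The dim one, A_51_P494992, read 71.1 and 108 in WT, 93.1 and 77.2 in Irf4 KO IgG and 28.1 and 25.6 in blockade cells. WT and Irf4 KO IgG overlapped at this probe, and both blockade arrays lay below the other 4. Before scaling it differed from WT by -0.05 (log2) on the Irf4 KO IgG arrays and by -1.70 on the blockade arrays, against -0.72 and -1.92 at the bright probe. In unscaled values the lower level in blockade cells was therefore seen at both probes and that in Irf4 KO IgG cells at the bright probe. Probes as weak as the dim one moved up by a median of 0.73 on the Irf4 KO IgG arrays (quartiles 0.37 and 1.15). The dim probe, at -0.05, lay below the lower quartile of these, so the unscaled values do not settle whether the 2 probes disagree.

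Runx1 read 1110 and 1533 in WT, 1472 and 1866 in Irf4 KO IgG and 1015 and 855 in blockade cells at its brightest probe, A_55_P2746444. The other bright probe, A_55_P2183438, read 561 and 833, then 819 and 865, then 529 and 379. At both probes the unscaled blockade arrays were the lowest. On the bright-probe scale the changes from WT were 0.18 (95% interval -0.19 to 0.54) and 0.00 (-0.50 to 0.51) in Irf4 KO IgG and -0.15 (-0.52 to 0.21) and -0.27 (-0.77 to 0.23) in blockade cells, at limma adjusted p from 0.508 to 0.995. The first pair turned negative on each scale set over all detected probes, to between -2.57 and -0.13, and passed as lower on the 75th percentile and array median scales, and the second of that pair also when Irf4 KO IgG array 1 (-0.29) or WT array 1 (-0.06) was left out. The third Runx1 probe, A_55_P2907714, was well above background on Irf4 KO IgG array 1 alone, at 27.9.

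Runx3 and Runx1, the 2 Runx genes with bright probes, were compared in the same way. Probes at their WT levels (log2 9 to 10 and 10 to 11) moved by medians of 0.25 and 0.13 on the Irf4 KO IgG arrays. Relative to the WT mean, the unscaled log2 ratio of Runx3 to Runx1 was -0.05 and 0.05 in WT, -1.20 and -0.93 in Irf4 KO IgG and -1.34 and -1.53 in blockade cells. No groups overlapped. The ratio was 2.09-fold lower in Irf4 KO IgG and 2.71-fold lower in blockade than in WT. The two-sided exact permutation p was 0.333 for each, the smallest possible with 2 arrays against 2. On the bright-probe scale the blockade and Irf4 KO IgG arrays overlapped in this ratio (difference -0.17).

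Runx2 was measured weakly. Probe A_52_P55876 read 4.21 and 10.4 in WT, 85.5 and 387 in Irf4 KO IgG and 3.11 and 4.05 in blockade cells. Both Irf4 KO IgG arrays, and no other array, had it well above background. On the scale set by the 75th percentile its log2 fold change was 3.58 (SE 0.64, limma adjusted p = 0.0113) from WT to Irf4 KO IgG. From Irf4 KO IgG to blockade it was -4.13 (SE 0.64, limma adjusted p = 0.00876). With the dim arrays raised to the lowest level well above background, it was at least 4.18-fold higher and at least 3.56-fold lower, bounds that were not tested. This probe counts as detected only through the Irf4 KO IgG group, in which it is high, so it had to differ and these p-values give no independent support. On that scale 29.4% of 34988 detected probes rose between WT and Irf4 KO IgG and 28.8% fell between Irf4 KO IgG and blockade. The second probe, A_52_P460545, read between 4.23 and 14.9 in WT and blockade cells and 33.9 and 38.0 in Irf4 KO IgG cells. It did not pass (log2 fold change 0.61, limma adjusted p = 0.339). The third, A_65_P18181, was at background level on all 6. The brightest Runx2 signal stood on the arrays on which 38.3% of dim probes were lit, and the part of that shift in it was not tested.

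Cbfb did not pass in any comparison. Its probe read 5645 and 8556 in WT, 5457 and 6539 in Irf4 KO IgG and 5696 and 4563 in blockade cells, so the groups overlapped, with blockade array 2 lowest. The bright-probe changes were -0.21 (95% interval -0.65 to 0.23) between Irf4 KO IgG and WT, -0.15 (-0.59 to 0.28) between blockade and WT and 0.05 (-0.39 to 0.49) between blockade and Irf4 KO IgG, at limma adjusted p of 0.524, 0.685 and 0.864. On the 75th percentile and array median scales Cbfb passed as lower in Irf4 KO IgG than in WT (-1.42 and -3.09), where bright probes as a whole moved by -1.04 and -2.71. It passed as higher there in blockade than in Irf4 KO IgG cells (1.32 and 3.11), as 27.8% of detected probes did on the first of the 2 scales.

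As the Runx partner, Cbfb also gives a reference within each array. Relative to Cbfb and to the WT mean, the brightest Runx3 probe was, unscaled, at -0.67 and -0.33 in Irf4 KO IgG and at -1.42 and -1.54 in blockade cells. The brightest Runx1 probe was at 0.52 and 0.60 in the former and at -0.08 and -0.0028 in the latter. At these probes Runx1 over its partner was above WT on both Irf4 KO IgG arrays, and Runx3 was below WT on all 4. Relative to the brightest probe of its gene, the dim Runx3 probe was at 1.11 and 0.24 in Irf4 KO IgG cells. The second Runx1 probe was at 0.09 and -0.18 in Irf4 KO IgG cells and at -0.01 and -0.24 in blockade cells. On the Irf4 KO IgG arrays probes at the WT level of the dim Runx3 probe moved by a median of 0.73. Those at the level of the bright Runx3 probe moved by 0.25. Probes at the WT level of Runx1 moved by a median of 0.13 on the Irf4 KO IgG arrays and those at that of Cbfb by -0.05. The ratios to Cbfb are not corrected for this. They were computed after the values were seen and were not tested.

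Between blockade and IgG in Irf4 KO cells no member passed. Of the 6 bright probes, 0 passed by limma between blockade and Irf4 KO IgG, where 0.900% of all bright probes did, and 3 had an unadjusted p under 0.05, as 28.6% of all bright probes had. Those 3 were Eomes (-0.77, 95% interval -1.17 to -0.36, limma adjusted p = 0.0766), Runx3 (-0.51, 95% interval -0.78 to -0.23, limma adjusted p = 0.0768) and Tbx21 (0.67, 95% interval 0.19 to 1.14, limma adjusted p = 0.105). For these 3 and the brightest Runx1 probe, 4 of 6, the blockade and IgG arrays did not overlap, as for 62.3% of all bright probes. Runx1 was at -0.33 and -0.27 (limma adjusted p of 0.203 and 0.404).

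In blockade cells the mean of Eomes thus lay nearer to WT than in IgG cells, that of Runx3 farther from WT and that of Tbx21 within 0.13 of WT, with no call for any of these differences. Eomes and Runx3 passed as lower when bright probes were centred on their median instead of quantile-normalised (-0.85 and -0.65, limma adjusted p of 0.0428 and 0.0446). On the 75th percentile and array median scales their sign turned (0.15 and 1.94 for Eomes, 0.35 and 2.14 for Runx3), where bright probes as a whole moved by 1.09 and 2.88. Tbx21 was positive in all 19 other settings and passed in 3.

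**Figure D3:**
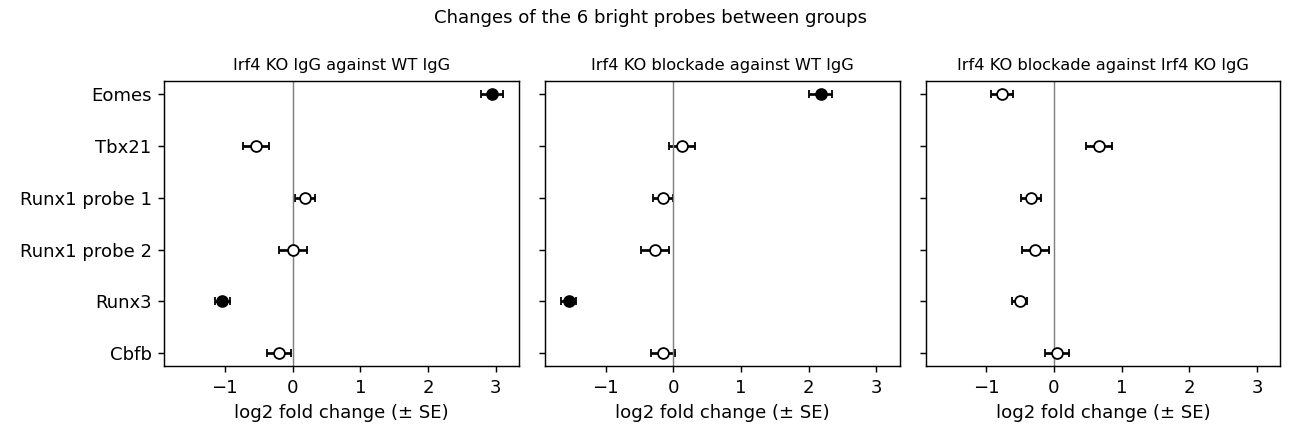
Log2 fold changes with SE of the 6 bright probes in the 3 comparisons (limma, 2 arrays per group); filled points passed an adjusted p of 0.05. Eomes and Runx3 are filled in both comparisons with WT, and no point is filled between blockade and Irf4 KO IgG.

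**Figure D4:**
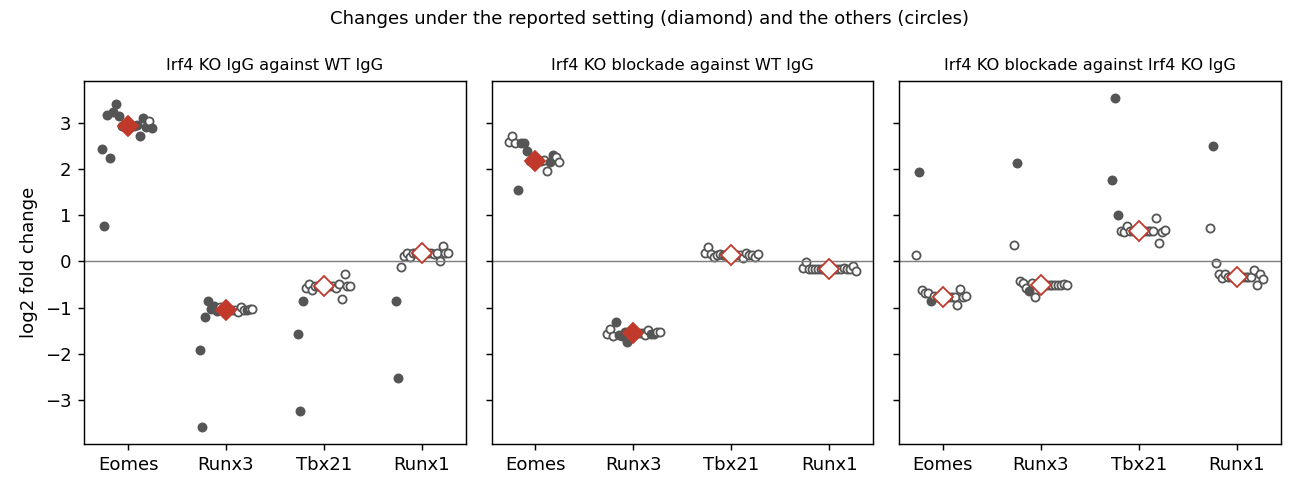
Log2 fold changes of Eomes, Runx3, Tbx21 and the brightest Runx1 probe under the reported setting (diamond) and up to 19 others (circles), filled where the adjusted p was under 0.05. Against WT, Eomes stays above 0 and Runx3 below 0 in every setting drawn, whereas between blockade and Irf4 KO IgG both cross 0 on the 75th percentile and array median scales.

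The genes around these factors were described through lists, each by its brightest probe. Of 28 genes known to be bound or raised by T-bet, Eomes or Runx3, 12 were bright, and between Irf4 KO IgG and WT 3 rose and 2 fell, where 1.41% and 0.998% of all bright probes did. The median of the 12 was 0.28, against -0.02 over all bright probes. Crtam, an adhesion receptor of cytotoxic-type T cells, rose by 2.42 (SE 0.19, limma adjusted p = 0.0148), from intensities of 71.7 and 71.8 in WT to 537 and 763. Like Eomes, it is bright through its level in the Irf4 KO groups, so its p-values give no independent support either. Nkg7, a granule protein gene, rose by 1.58 (SE 0.16, limma adjusted p = 0.0227), from 3368 and 4318 to 8808 and 14064. Txk, a kinase of T cells, rose by 0.77 (limma adjusted p = 0.0431). The array median scale turned Nkg7 to -1.32 and Txk to -1.96, both of which passed as lower, and the 75th percentile scale turned Txk to -0.29. Crtam kept its direction in all 18 other settings and passed in 14, and in 13 with blockade.

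The Th1 chemokine receptor gene Cxcr3 fell by 1.30 on the log2 scale (limma adjusted p = 0.0200), from 16780 and 20371 to 5517 and 9225, and the cytokine gene Tnf fell by 1.12 (limma adjusted p = 0.0285). Between blockade and WT, 2 of the 12 rose, Crtam (3.01, limma adjusted p = 0.0106) and Nkg7 (1.82, limma adjusted p = 0.0190), and 1 fell, Cxcr3 (-1.17, limma adjusted p = 0.0256), where 0.440% and 0.284% of all bright probes did. Cxcr3 was lower in all 19 other settings in both comparisons and passed in 13 with Irf4 KO IgG and in 10 with blockade. Genes known as targets of these factors thus moved both ways. Between blockade and Irf4 KO IgG 0 of the 12 passed by limma, where 0.900% of all bright probes did.

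Of 16 genes known to be repressed by Runx or T-box factors in T cells, 11 were bright. A positive change was seen in 6 of the 11 from WT to Irf4 KO IgG and in 1 from WT to blockade. None of these passed as higher, where 1.41% and 0.440% of all bright probes did. Cxcr5, a follicular homing receptor gene, fell between WT and Irf4 KO IgG (-1.06, limma adjusted p = 0.0468) and between WT and blockade (-1.82, limma adjusted p = 0.0190), the only one of the 11 that passed in either, where 0.998% and 0.284% of all bright probes fell. Cd4, which Runx3 silences in the CD8 lineage, had changes of -0.44 and -0.67 from WT and did not pass (limma adjusted p of 0.217 and 0.145). Over the 11 genes the median change from WT was 0.05 with IgG and -0.52 with blockade.

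Of 22 inducers of T-box factors, such as cytokine receptor chains, Jak and Stat genes, 14 were bright and 0 passed by limma in any of the 3 comparisons. Of all bright probes, 1.41% passed as higher and 0.998% as lower from WT to Irf4 KO IgG, and 0.440% and 0.284% from WT to blockade. From Irf4 KO IgG to blockade 0.900% passed. At shares this low, 0 of 14 does not show that these genes were unchanged. Their median changes were 0.14 from WT to Irf4 KO IgG, -0.10 from WT to blockade and -0.33 from Irf4 KO IgG to blockade. Over all bright probes these medians were -0.02, 0.0006 and 0.03. The lowest p from WT to Irf4 KO IgG was that of the kinase gene Jak2 (0.70, limma adjusted p = 0.0824), followed by the interleukin 12 receptor gene Il12rb1 (-0.94, limma adjusted p = 0.0948). Of 17 Runx cofactors and binding partners 9 were bright and 0 passed by limma. The same shares of all bright probes apply, so 0 of 9 does not show that these genes were unchanged. The corepressor gene Tle2 was nearest (0.90 in Irf4 KO IgG, limma adjusted p = 0.0572, and 1.06 in blockade, limma adjusted p = 0.0579, both against WT).

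Among 25 partner and opposing lineage factors 15 were bright, and 5 rose between Irf4 KO IgG and WT with 0 lower, where 1.41% of all bright probes rose and 0.998% fell. They were Irf4 (1.44), Irf8 (1.50), Bach2, a repressor of effector programmes (1.51), Tox (1.11) and Lef1, a factor of naive T cells (0.85), at limma adjusted p from 0.0182 to 0.0491. Irf4 (1.40) and Irf8 (1.72) also rose between blockade and WT, where 0.440% of all bright probes did. On the array median scale the 5 turned negative between Irf4 KO IgG and WT, from -1.01 to -2.16, and passed as lower. Lef1 passed as higher in 1 of 19 other settings and was -0.49 on the 75th percentile scale. The part in these rises of other cells, whose markers had more signal in Irf4 KO IgG cells, was not tested. Of the other 15 T-box family genes 1, Mga, was bright, and it did not pass in any comparison. Mga was also the only one of these 15 well above background on all 6 arrays.

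Over the 6 arrays the bright probes whose centred values lay nearest to those of Eomes were Spry1 (root mean square difference 0.14 on the log2 scale, r = 0.99), Ramp1 (0.31) and Cul7 (0.34). Those nearest to Runx3 were Itpr1 (0.07, r = 0.99), Man2a2 (0.14) and Iffo2 (0.15). Those nearest to Tbx21 were Ifnar2 (0.05), Pgk1 (0.10) and Atg5 (0.10), and those nearest to Runx1 were Msl2 (0.03), Creb1 (0.04) and Tbl1x (0.05). These are descriptions over 6 arrays that share their groups and scaling.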

How the data were processed

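From 0.5 µg of total RNA per sample the authors made Cy3-labelled cRNA, per the labels' protocols. Feature Extraction 11.0.1.1 (Agilent) read the arrays, per the file headers, and the submitters' processing notes give version 9.1. The deposited files give, for each spot, a background-subtracted intensity that is not scaled between arrays. The table of values that the authors deposited is that intensity over a constant for each array (relative tolerance 0.001).

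Spots that the software marks as outliers were dropped, the deposited intensities were taken to log2 and averaged per probe, and 1234 probes lacking usable spots were left out. RefSeq accessions named 58.3% of probes. Bright probes (mean log2 of at least 8) were quantile-normalised and fitted with limma 3.58.1 in R 4.3.3 over the 3 groups (3 residual degrees of freedom), which was tested on simulated data. P-values measure the spread between 2 arrays per group. The scanner files used here have no mean signal, so normexp, as an alternative, used the median signal. The other alternatives were 3 scales over all detected probes, cyclic loess or the median among bright probes, minimums of 7 and 9, the value table, 1 probe per gene, the replicate number or slide row as a block, the 4 arrays compared alone, and each array left out. The members, the lists and the bright-probe scale were chosen with earlier results of these data known. The named genes are the members, up to 4 genes of a list by p with any that passed, and the 3 nearest patterns. The design of the array names build mm9, so no probe positions are given.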

Additional observations from a re-analysis of the deposited data

How the results depend on the processing

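The count of the 6 bright member probes past the threshold was 2 between Irf4 KO IgG and WT. It was 6 on the 75th percentile and the array median scales, 0 with a minimum mean log2 of 9 (which drops Eomes) and with the 4 arrays compared alone, 1 with a replicate block, and 0 to 2 without 1 array. Between blockade and WT it was 2, but 0 on each scale set over all detected probes, 1 with a minimum of 9, and 0 to 2 without 1 array. From Irf4 KO IgG to blockade the count was 0, also without any 1 array, but 2 on the 75th percentile scale and when bright probes were centred on their median, 6 on the array median scale and 1 on a scale set by probes detected throughout. The labels name no batch that same-numbered arrays share, so the reported fit has no replicate block. The deviations of same-numbered arrays correlated by between -0.18 and 0.05. With 2 arrays per group this cannot exclude a pairing. Under the replicate block Runx3 between Irf4 KO IgG and WT had an adjusted p of 0.0560, and no other call of a member changed.

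The ratio of Eomes to Tbx21 (log2) between Irf4 KO IgG and WT was 3.48 on the bright-probe scale and 2.80 with normexp, with a range of 3.19 to 3.93 without 1 array. Between blockade and WT it was 2.05, 2.41 on the 4 unscaled or shifted scales, 2.42 with cyclic loess and 1.46 with normexp, and 1.78 to 2.18 without 1 array. The ratio of Runx3 to Runx1 between Irf4 KO IgG and WT was -1.22, and -0.96 with normexp. Between blockade and WT it was -1.39, -1.15 with normexp and -1.59 with a minimum of 9, and from Irf4 KO IgG to blockade -0.17, against -0.42 with that minimum.

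Signs turned for values that had not passed. The 75th percentile scale gave -0.90 and -0.86 for Runx1 (A_55_P2183438 and A_55_P2746444) between Irf4 KO IgG and WT, and 0.15 for Eomes, 0.64 and 0.72 for Runx1 and 0.35 for Runx3 between blockade and Irf4 KO IgG. The array median gave -2.57 and -2.52, then 1.94, 2.43 and 2.51, and 2.14, and 0.025 for Cbfb between blockade and WT. The scale set by probes detected throughout gave -0.17 and -0.13 for Runx1 between Irf4 KO IgG and WT, and a minimum of 7 gave -0.0082 for A_55_P2183438. Without 1 array that probe ran from -0.29 (Irf4 KO IgG array 1 left out) to 0.29 (array 2 left out), with -0.06 without WT array 1, and from -0.57 to 0.012 between blockade and Irf4 KO IgG. Cbfb was at -0.0027 between blockade and Irf4 KO IgG with cyclic loess and ran from -0.16 to 0.27 without 1 array, and from -0.42 to 0.0067 between Irf4 KO IgG and WT. The 2 scales shift all probes of an array together, which moved bright probes by -1.04 and -2.71 between Irf4 KO IgG and WT. The cause of the other changes was not tested. Weak signals limit Runx2, the dim Runx3 probe and the second Eomes probe.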
